A study of Ovis aries with 16 samples.

Results

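Macrophage genes, some of them marks of the Kupffer cells of the liver, were described in liver and skeletal muscle of sheep exposed to bisphenol A (BPA) before birth. The 10 listed genes were FCER1G, LAPTM5, CSF1R, SPI1, CD68, CD163, MARCO, C1QA, C1QB and C1QC. They were chosen because the direction of their difference with BPA was known to differ between the tissues, so their BPA values below are a description and carry no test. Of the 10 listed symbols, 8 were present among the 28524 rows of the deposited table, and CD163 and C1QB were not analysed here. RNA was sequenced from liver and vastus lateralis muscle of 8 female Suffolk sheep. The 4 BPA animals were born to ewes injected daily under the skin with 0.5 mg/kg BPA, a plasticiser with oestrogenic activity, in corn oil from day 30 to day 90 of gestation, and the 4 control animals to ewes given corn oil alone. The offspring received no BPA themselves. They were about 21 months old at sampling, after 48 h of fasting and 24 h after the second of a pair of prostaglandin injections that placed them in the late follicular phase. Each animal gave 1 library per tissue, 16 in all.

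Macrophages take up particles, dead cells and old erythrocytes, and in the liver they line the sinusoids as Kupffer cells, the largest resident macrophage pool of the body. Their lineage is set by the transcription factor PU.1, encoded by SPI1, and their survival depends on signals through the CSF1 receptor. Macrophages are also the main source of C1q, the molecule that opens the classical complement pathway and is assembled from A, B and C chains. In skeletal muscle, macrophages are sparse and lie between the fibres.

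Recovered depth was 4.66 to 17.92 M reads in BPA livers and 4.39 to 19.28 M in control livers, against 15.15 to 26.54 M in BPA muscles and 16.16 to 28.54 M in control muscles. The 8 hepatocyte markers were all higher in liver than in muscle, and the 7 myofibre markers found were all lower, past the adjusted threshold in every case. Within liver, 2 libraries stood apart from their groups. The BPA liver of sheep 910 lay near the controls: the median deviation of its 73 cytosolic ribosomal protein genes from the 8-liver mean was 1.22 on the log2 scale, against -2.04 to -1.35 in the other BPA livers and 0.01 to 1.39 in the controls. The control liver of sheep 902, the shallowest library, had a median deviation of -3.46 for hepatocyte markers and 4.13 for fibroblast and stellate markers. In liver, the number of the 8 genes below all controls is therefore given with and without these animals. So is the number of genes lower in BPA animals in the wider macrophage programme. Counts of single gene lists are given with all libraries only. Values are normalized read counts, that is reads divided by a size factor per library, and are compared only within a gene.

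In liver, the mean of all 8 genes was lower in BPA animals than in controls. Differences of the mean log2(count + 1), BPA minus control, ran from -2.36 for LAPTM5 to -1.09 for SPI1, with a median of -1.69 where the median over all 15689 genes tested was -0.014. For 5 of the 8 genes, every BPA liver lay below every control liver, a pattern found in 3.98% of all genes in liver. Groups of 3 separate more often, and with sheep 910 left out the number was 7, against 16.2% of all genes. Without sheep 902 it was 6, against 13% of all genes, and without both it was 8, against 29.7%. In muscle the differences were small: the mean log2 level was higher in BPA animals for 7 of the 8 genes and lower for MARCO, with a median difference of 0.22. In none of the 8 did the BPA muscles lie above all control muscles, a pattern found in 2.05% of all genes in muscle. Without sheep 910, 5 of the 8 were higher in BPA muscle and the median was 0.13. The samples are whole tissue, so fewer macrophages and less of each RNA per macrophage cannot be told apart. The part of RNA quality and library composition in these differences was not tested either.

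**Figure D1:**
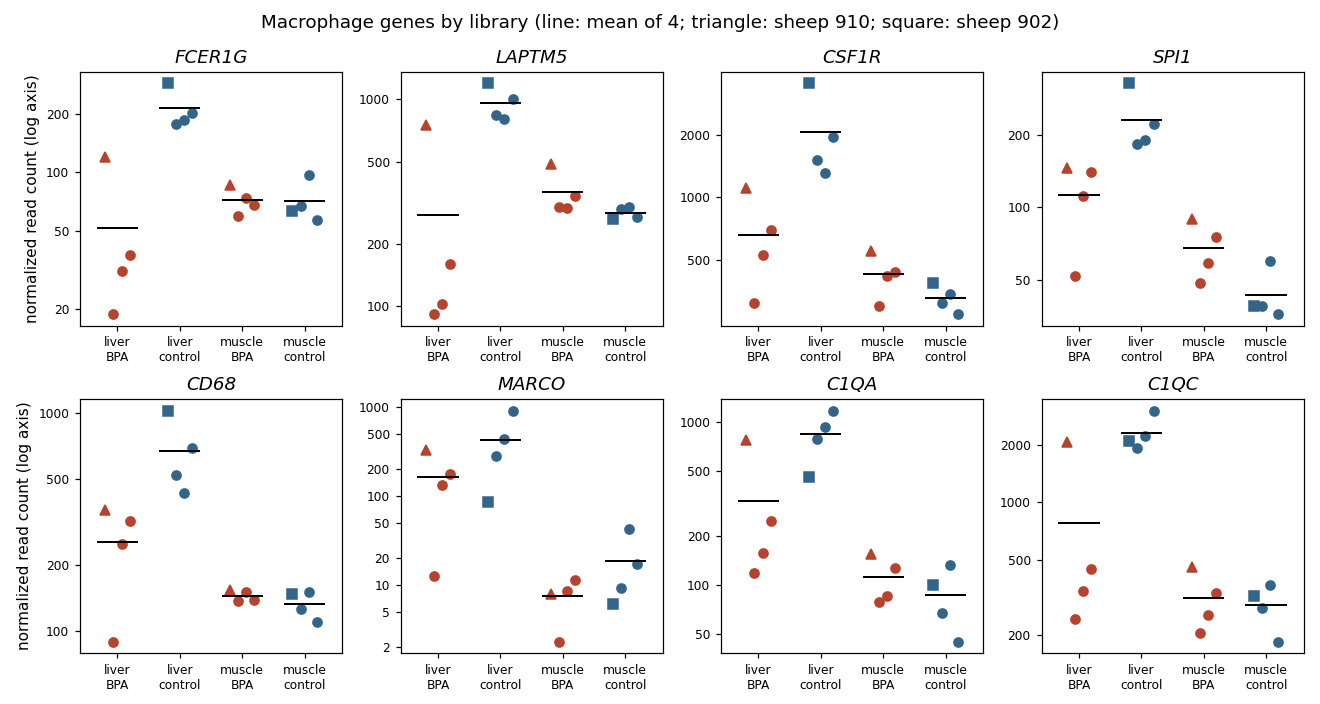
Normalized read counts (log axis) of the 8 genes in every library, grouped by tissue and treatment, with a line at the mean of 4; triangles mark sheep 910 and squares sheep 902. In liver the BPA libraries of sheep 918, 977 and 984 lie low for most genes while sheep 910 lies nearer the controls, and in muscle the groups overlap for all 8 genes.

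SPI1 encodes the transcription factor PU.1, which commits progenitors to the myeloid lineage. In liver its counts were 145, 52.1, 111 and 140.3 in BPA sheep 910, 918, 977 and 984, against 326, 183, 189 and 221 in control sheep 902, 908, 924 and 928. All BPA livers lay below all controls, with sheep 918 the lowest and sheep 902 the highest. The BPA mean of 112 ± 42.8 was 0.488 times the control mean of 229.9 ± 66.3 (SD, n = 4 each), the smallest reduction among the 8 genes. In muscle its counts were 89.1, 48.3, 59.0 and 75.4 in the BPA animals, against 39.0, 38.8, 59.8 and 36.0 in the controls taken in the same order of sheep. Here SPI1 had the largest positive difference of the 8 genes, 0.63 on the log2 scale, and 3 of the 4 controls lay below all BPA muscles. The control of sheep 924 lay above the BPA muscles of sheep 918 and 977, so the groups overlapped. The muscle means were 68.0 ± 18.0 in BPA animals and 43.4 ± 11.1 in controls.

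CSF1R encodes the receptor tyrosine kinase for CSF1 and IL34, on which macrophages depend for survival. Liver counts were 1109, 310.2, 528 and 691 in BPA sheep 910, 918, 977 and 984, against 3529, 1503, 1307 and 1943 in control sheep 902, 908, 924 and 928. Every BPA liver was below every control, with sheep 918 the lowest and control sheep 902 the highest. The means were 660 ± 338 in BPA livers and 2071 ± 1008 in control livers, a ratio of 0.318. Muscle counts were 552, 299, 415 and 438 in BPA animals, against 386, 308, 343 and 273 in controls. The BPA muscles of sheep 910, 977 and 984 exceeded all controls and that of sheep 918 lay among them. The means were 426 ± 103 in BPA muscles and 328 ± 48.2 in control muscles, a log2 difference of 0.36.

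FCER1G encodes the common gamma chain through which Fc receptors signal, and LAPTM5 a lysosomal membrane protein of haematopoietic cells. For FCER1G the liver counts were 120.0, 18.7, 31.2 and 37.8 in BPA sheep 910, 918, 977 and 984, against 286, 178, 186 and 202 in control sheep 902, 908, 924 and 928. The BPA livers lay below all controls, and sheep 918, 977 and 984 lay well below sheep 910. The BPA mean of 51.9 ± 46.1 was 0.244 times the control mean of 213 ± 50.0, the lowest ratio of the 8 genes. LAPTM5 had the same order of animals among the BPA livers, with counts of 749.7, 91.6, 102 and 160.4 in BPA livers against 1193, 836, 805 and 999.9 in control livers. Sheep 910 lay close under the lowest control, and the other BPA livers lay far below it. The LAPTM5 means were 276 ± 317 in BPA livers and 958 ± 178 in control livers, a ratio of 0.288 in which 1 BPA animal sets most of the BPA spread.

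In muscle the pair differed little between treatments. FCER1G counts were 85.8, 59.9, 74.4 and 68.1 in BPA muscles and 63.3, 67.4, 97.4 and 57.2 in control muscles. The groups lay within each other, with means of 72.0 ± 10.9 in BPA muscles and 71.3 ± 17.9 in control muscles and a log2 difference of 0.032. The sign of that difference turned when BPA sheep 910 (-0.056), control sheep 902 (-0.015) or control sheep 928 (-0.063) was left out. LAPTM5 counts were 487, 302, 299 and 340.5 in BPA muscles and 264, 294, 302 and 269 in control muscles. Sheep 910 and 984 lay clear of the controls, sheep 918 level with the highest control and sheep 977 below it. The log2 difference was 0.31.

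CD68 encodes a glycoprotein of macrophage lysosomes and MARCO a scavenger receptor that binds bacteria and particles and is a known mark of Kupffer cells. CD68 liver counts were 359, 89.5, 251 and 320.0 in BPA sheep 910, 918, 977 and 984, against 1023, 517, 431 and 689 in control sheep 902, 908, 924 and 928. The BPA livers were below all controls, and sheep 918 was below the other BPA livers. The means were 255 ± 119 in BPA livers and 665 ± 262 in control livers, a ratio of 0.383. CD68 muscle counts spanned 137 to 155 in BPA animals and 109.6 to 150.2 in controls, the narrowest spread of the 8 genes in BPA muscle relative to the mean. The log2 difference in muscle was 0.13, with means of 145 ± 8.62 in BPA muscles and 133 ± 19.2 in control muscles.

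MARCO was the exception to the opposite directions, since its mean was lower in BPA animals in both tissues. Its liver counts were 326, 12.5, 132 and 177 in BPA sheep 910, 918, 977 and 984, against 84.8, 279, 434 and 905 in control sheep 902, 908, 924 and 928. The groups overlapped, because the control liver of sheep 902 lay below 3 BPA livers and sheep 910 lay above the control of sheep 908. The value of sheep 918 rests on 6 reads, with an exact Poisson 95% interval of 4.58 to 27.2 normalized counts that covers counting error only. The means were 162 ± 129.7 in BPA livers and 426 ± 349.9 in control livers. The log2 difference of -1.62 rests in part on single libraries: it was -0.65 without BPA sheep 918 and -1.11 without control sheep 928. In muscle MARCO was near the detection limit, with 3 to 14 reads per BPA library and 5 to 36 per control library. The muscle means were 7.47 ± 3.78 in BPA animals and 18.7 ± 16.4 in controls, a log2 difference of -1.02, and the control of sheep 924, at 42.2, stood above all others.

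C1QA and C1QC encode the A and C chains of C1q. C1QA liver counts were 782, 119, 157 and 249 in BPA sheep 910, 918, 977 and 984, against 459.8, 786, 940.5 and 1177 in control sheep 902, 908, 924 and 928. The groups overlapped only through sheep 910, which lay above the control of sheep 902, itself the lowest control. The means were 327 ± 308 in BPA livers and 841 ± 301 in control livers, a ratio of 0.388. C1QC showed the same gap between sheep 910 and its group, with 2095, 242, 341 and 444 in BPA livers against 2114, 1927, 2249 and 3050.1 in control livers. Sheep 910 lay above the control of sheep 908, and the other BPA livers lay far below every control. The means were 780.3 ± 880.2 in BPA livers and 2335 ± 495 in control livers, a ratio of 0.334.

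In muscle, C1QA counts were 156, 79.0, 85.6 and 126 in BPA animals, against 99.8, 67.4, 133 and 45.0 in controls. The groups overlapped, with means of 112 ± 36.2 in BPA muscles and 86.2 ± 38.3 in control muscles and a log2 difference of 0.43. C1QC counts were 459, 205, 254 and 334 in BPA muscles, against 320.2, 278, 366 and 185 in control muscles. The groups overlapped here too, and the log2 difference of 0.10 became -0.10 without BPA sheep 910 and -0.096 without control sheep 928. In the RefSeq gene order of assembly ARS-UI_Ramb_v3.0, EPHB2 and EPHA8, genes of ephrin receptors, flank the C1Q genes. EPHB2 averaged 5.996 ± 2.67 (range 2.29 to 8.33) in BPA livers and 16.5 ± 17.6 (range 1.42 to 39.6) in control livers. Its counts were low and the groups overlapped. EPHA8 was near the detection limit, with 1.04 ± 2.08 (range 0 to 4.16) in BPA livers and 0 in all control livers, too few counts for a comparison.

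**Figure D2:**
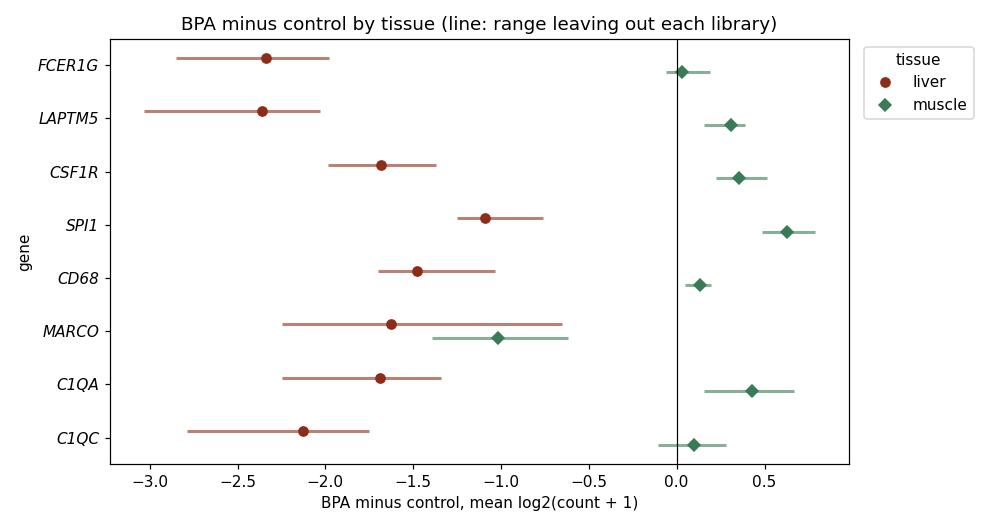
BPA minus control difference in mean log2(count + 1) for each gene, with liver as circles and muscle as diamonds; lines give the range when each library of that tissue is left out in turn. The liver points lie between -2.36 and -1.09, and the muscle points between -1.02 for MARCO and 0.63 for SPI1.

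The effect in liver minus the effect in muscle was negative for all 8 genes, from -2.67 for LAPTM5 and -2.37 for FCER1G to -0.60 for MARCO, with a median of -2.08. Of all 13677 genes tested for that difference, 0.0% passed the adjusted threshold of 0.05 in limma, a fit that borrows the spread across genes; 2661 had an unadjusted p under 0.05, edgeR called 0 and DESeq2 called 148. Because the 8 genes were chosen for this contrast, their differences are given without a test.

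The animals kept much the same order across genes. In liver, sheep 910 had the highest BPA count for 8 of 8 genes and sheep 918 the lowest count of all 8 livers for 8 of 8. Sheep 902 had the highest liver count for 5 genes, namely FCER1G, LAPTM5, CSF1R, SPI1 and CD68, and sheep 928 for MARCO, C1QA and C1QC. Sheep 910 was also the highest BPA animal in muscle for 7 of 8 genes. Its liver differed from the control mean by -0.81 to -0.34 on the log2 scale for FCER1G, LAPTM5, CSF1R, SPI1 and CD68, and its muscle lay above the control mean for all but MARCO, by 1.05 for SPI1.

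Pairwise Pearson correlations of log2 levels had a median of 0.87 over the 28 gene pairs in the 8 livers, from 0.56 for CSF1R with MARCO to 0.99 for SPI1 with CD68. Without sheep 902 the liver median was 0.95. In the 8 muscles the median was 0.68, from -0.090 for CD68 with MARCO to 0.91 for C1QA with C1QC, and without sheep 910 it was 0.58. These are descriptions over libraries that share depth, composition and, in part, treatment.

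**Figure D3:**
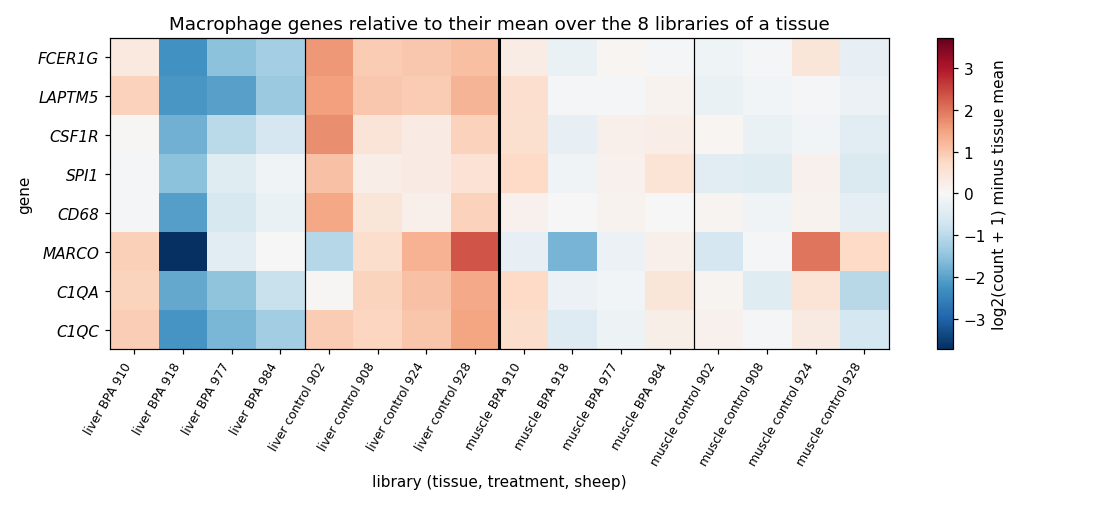
Heat map of log2(count + 1) of the 8 genes minus the gene's mean over the 8 libraries of its tissue; columns are libraries, BPA left of control within each tissue, and colour runs from blue (below the mean) to red (above). Liver columns of BPA sheep 918, 977 and 984 are blue for most genes, that of sheep 910 is pale, and muscle columns are pale apart from MARCO and, in control sheep 928, C1QA.

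PTPRC encodes CD45, the phosphatase found on all nucleated blood-lineage cells, and its level served as a within-library yardstick. It is also on the pan-macrophage and lysosomal list below, where 13 of 14 genes were lower in BPA livers and PTPRC alone was not. Most T and NK cell markers were lower in BPA livers too, while dendritic cell markers divided. A ratio to PTPRC is therefore not a ratio to leukocytes in general. In liver it was 710.0, 714, 585 and 765 in BPA sheep 910, 918, 977 and 984, against 599, 625, 702 and 673 in control sheep 902, 908, 924 and 928. The groups overlapped, and the mean log2 difference was 0.090. Relative to PTPRC in the same library, 6 of the 8 genes were lower in every BPA liver than in every control liver. These were all but MARCO and C1QA, and the ratio of 6.11% of all genes to PTPRC showed this pattern. Because PTPRC differed little between the liver groups, these ratios largely repeat the BPA difference for which the genes were chosen. They are a description only. LAPTM5 per PTPRC averaged 0.392 ± 0.444 in BPA livers and 1.49 ± 0.362 in control livers, and CSF1R per PTPRC averaged 0.950 ± 0.464 in BPA livers and 3.26 ± 1.80 in control livers. In muscle the ratios of all 8 genes overlapped: LAPTM5 per PTPRC averaged 1.11 ± 0.109 in BPA muscles and 1.08 ± 0.0608 in control muscles. PTPRC itself averaged 324 ± 79.2 in BPA muscles and 262 ± 26.1 in control muscles.

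**Figure D4:**
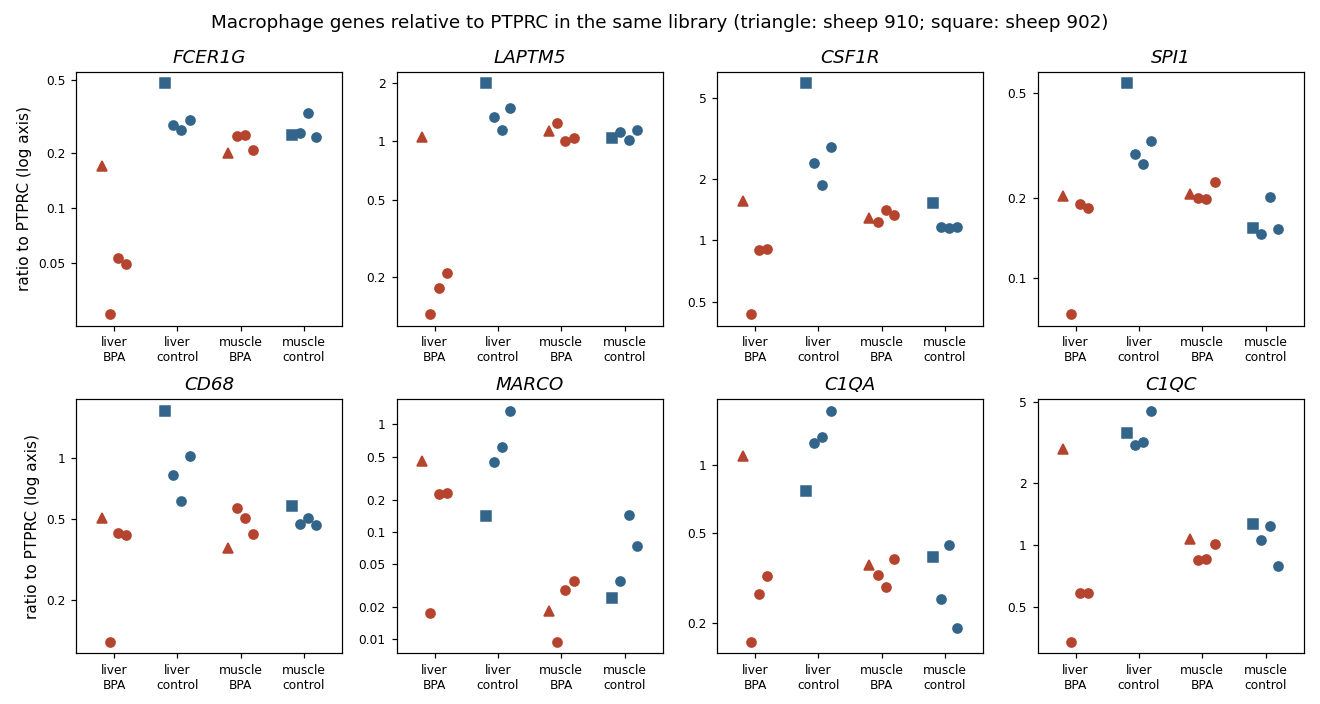
Ratio of each gene's normalized count to that of PTPRC in the same library (log axis), by tissue and treatment; triangles mark sheep 910 and squares sheep 902. LAPTM5 per PTPRC lies near 1.11 in BPA muscles and 1.08 in control muscles, while 6 of the 8 genes separate BPA livers from control livers.

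The difference between tissues did not enter the choice of genes and was tested with limma over the 16 libraries. Of the 8 genes, 6 passed as higher in liver than in muscle, a result that 36.1% of the 15995 genes tested gave. MARCO differed most, with 294 ± 282 in liver and 13.1 ± 12.5 in muscle (n = 8 per tissue, SD). Its log2 difference was 4.03 (SE 0.632, adjusted p = 2.83e-05), with 8 of 8 animals higher in liver. The C1q chains followed, C1QA at 584 ± 394 in liver and 99.0 ± 37.1 in muscle (log2 2.24, SE 0.352, adjusted p = 2.87e-05) and C1QC with a log2 difference of 1.93 (SE 0.349, adjusted p = 0.000122), each in 8 of 8 animals. CSF1R was higher in liver by 1.54 (SE 0.251, adjusted p = 4.39e-05) and SPI1 by 1.51 (SE 0.230, adjusted p = 2.16e-05), in 8 of 8 animals, and CD68 by 1.44 (SE 0.254, adjusted p = 9.55e-05) in 7 of 8.

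FCER1G and LAPTM5 did not pass between tissues when all animals were used. FCER1G averaged 132 ± 96.9 in liver and 71.7 ± 13.7 in muscle, with a log2 difference of 0.38 (SE 0.288, adjusted p = 0.242) and 5 of 8 animals higher in liver. LAPTM5 averaged 617 ± 436 in liver and 319.7 ± 71.5 in muscle, with a log2 difference of 0.41 (SE 0.330, adjusted p = 0.277), also in 5 of 8. Over the alternative fits of limma, edgeR and DESeq2 the adjusted p reached 0.447 for FCER1G and 0.417 for LAPTM5. Among control animals alone the log2 difference was 1.57 for FCER1G and 1.74 for LAPTM5. The control livers also entered the choice of genes through the BPA difference, so these values are given without a test. In the BPA animals 1 of 4 livers, that of sheep 910, had more FCER1G or LAPTM5 than the muscle of the same animal.

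Ratios between genes of the same library are free of the size factor, and 2 were compared between the tissues of each animal. MARCO relative to CD68 had a mean log2 ratio of -1.09 ± 1.38 in liver and -3.68 ± 1.10 in muscle. It was higher in liver in 8 of 8 animals, by 2.59 ± 0.942, with p = 0.0078 in an exact two-sided sign-flip permutation test, the smallest p that 8 animals allow, and 0.0156 after adjustment over both ratios. C1QA relative to C1QC had a mean log2 ratio of -1.31 ± 0.407 in liver and -1.63 ± 0.261 in muscle, a difference of 0.32 ± 0.400 in 7 of 8 animals that did not pass (exact permutation p = 0.0625, the same after adjustment). Without sheep 902 that difference was 0.44 and passed.

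The wider macrophage programme was taken from 7 lists of known genes, of which 64 of 67 were found. The complement list includes genes such as C2 and C3, which hepatocytes secrete, so the counts below are not of macrophage genes alone. In liver, 56 of the 62 tested were lower in BPA animals by their mean log2 level, against 50.7% of all genes tested. The median difference was -0.64. The number lower was 53 without sheep 910, 50 without sheep 902 and 48 without both. With all libraries, none passed limma's adjusted threshold, and 0.0% of all genes tested in liver did. At an unadjusted p under 0.05 there were 18 programme genes, all lower, and 2838 of all 15689 genes. On the programme edgeR called 0 and DESeq2 called 1, where DESeq2 called 1.24% of all genes. Without BPA sheep 910, 11 of the 62 passed in limma, all lower, where 9.15% of all genes passed as lower. For 9 of the 62, or 14.5%, every BPA liver lay below every control, against 3.98% of all genes. Among them were MRC1, TLR4, MPEG1, CTSS, CYBB, CD53, C3AR1 and C5AR1. In muscle, 43 of 58 were higher in BPA animals, against 49.5% of all genes, with a median of 0.18. Without sheep 910 the number higher was 35 and the median 0.040. None of the 58 passed with all libraries, where 0.129% of all genes did. In limma 4 had an unadjusted p under 0.05, as did 1142 of all 14706 genes. On the programme in muscle, edgeR and DESeq2 called 0. ITGAM, the alpha chain of the complement receptor Mac-1, was the 1 programme gene of 58 whose BPA muscles all lay above the controls, a share of 1.72% that is no more than the 2.05% of all genes. It stood at 50.0 ± 12.6 in BPA muscles and 35.6 ± 1.66 in control muscles. For the difference between the effects in the tissues, 53 of 58 were negative and none passed. In limma 20 had an unadjusted p under 0.05, as did 2661 of all 13677 genes, and edgeR called 0. DESeq2 called 2, where it called 1.08% of all genes, and limma without sheep 910 called 15, all negative, where 12.6% of all genes passed as negative.

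**Figure D5:**
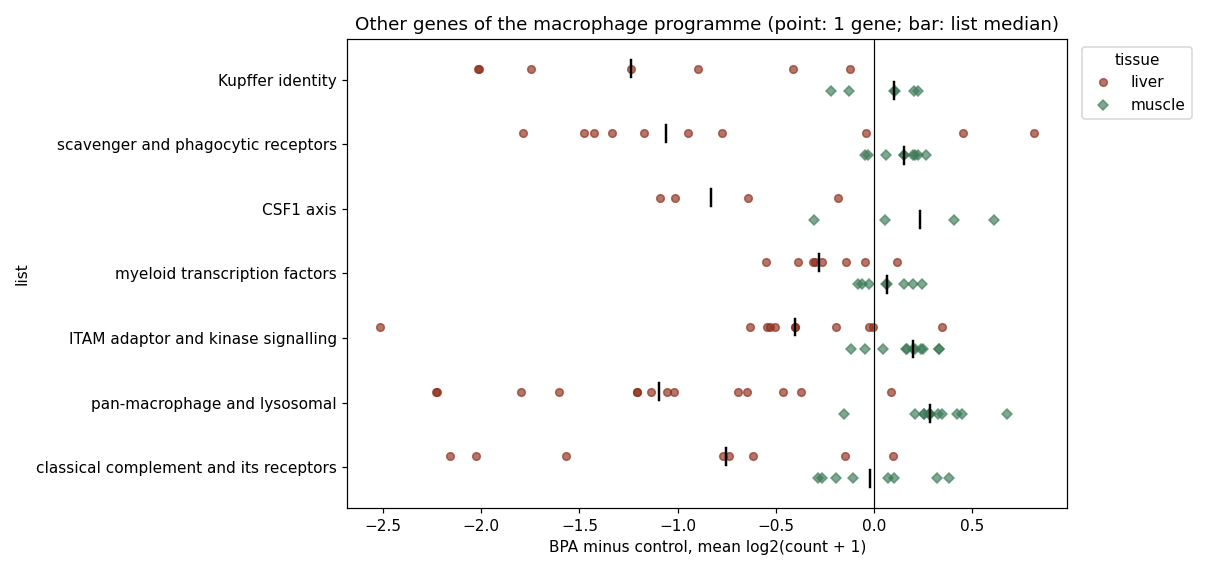
BPA minus control difference in mean log2(count + 1) of each tested gene of the 7 lists, with liver as circles and muscle as diamonds and a bar at each list's median. Medians lie below 0 in liver for all 7 lists, from -1.24 to -0.28, and between -0.018 and 0.29 in muscle.

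Genes of Kupffer cell identity were lower in BPA livers in 7 of 7 tested (median -1.24) and higher in BPA muscles in 4 of 6 (median 0.11); none passed. SIGLEC1, the sialoadhesin of tissue macrophages, averaged 549 ± 372 in BPA livers and 2474 ± 2421 in control livers. SLC40A1, the iron exporter ferroportin, averaged 1520.1 ± 1013 in BPA livers and 3178 ± 728 in control livers, and HMOX1, which breaks down haem, 356 ± 275 in BPA livers and 969 ± 329.8 in control livers. These 3 genes were among the 11 that passed when sheep 910 was left out, a fit in which 9.15% of all genes passed as lower. TIMD4, a phosphatidylserine receptor of long-lived Kupffer cells, was named after its values were seen. It averaged 476 ± 219 in BPA livers and 521 ± 280.5 in control livers, and its log2 difference of -0.12 was 0.20 without sheep 902. VSIG4, also on this list and named after its values were seen, turned likewise, from -0.41 to 0.39 without sheep 902. In the comparison of tissues, 6 of these 7 genes passed as higher in liver and HMOX1 as lower.

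Scavenger and phagocytic receptors were lower in BPA livers in 8 of 10 (median -1.06) and higher in BPA muscles in 7 of 9 (median 0.16). MRC1, the mannose receptor, averaged 711 ± 179 in BPA livers and 2303 ± 1708 in control livers, a log2 difference of -1.48 (SE 0.463, limma adjusted p = 0.256). CD14, the co-receptor for bacterial lipopolysaccharide, averaged 992 ± 735 in BPA livers and 1877 ± 211 in control livers. MERTK, a receptor for the uptake of dying cells and named after its values were seen, ran the other way, at 903 ± 427 in BPA livers and 489 ± 146 in control livers (log2 0.82, SE 0.412, limma adjusted p = 0.307). In muscle MRC1 averaged 249 ± 77.9 in BPA animals and 204 ± 49.1 in controls, and FCGR3A, the low-affinity Fc receptor CD16, 50.2 ± 3.02 in BPA animals and 43.5 ± 9.34 in controls.

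Of the CSF1 axis, 4 of 4 genes were lower in BPA livers (median -0.83) and 3 of 4 higher in BPA muscles (median 0.23). CSF1, the ligand of CSF1R, averaged 260.0 ± 93.2 in BPA livers and 769 ± 926 in control livers, where the control of sheep 902 reached 2158. Its log2 difference of -1.01 was -0.31 without that library. CSF2RB, the shared beta chain of the GM-CSF, IL-3 and IL-5 receptors, averaged 204 ± 102 in BPA livers and 410.3 ± 125 in control livers. The same gene averaged 202.5 ± 70.8 in BPA muscles and 129 ± 27.4 in control muscles, a log2 difference of 0.61 (SE 0.239, limma adjusted p = 0.547). IL34, the second ligand of CSF1R, averaged 75.2 ± 16.8 in BPA muscles and 56.7 ± 14.4 in control muscles. It was lower in liver than in muscle by a log2 difference of -2.01. Its BPA minus control difference in liver, -0.18, was 0.13 without sheep 902.

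Myeloid transcription factors showed small differences: 7 of 8 were lower in BPA livers, with a median of only -0.28, and 5 of 8 higher in BPA muscles, with a median of 0.067. IRF8 averaged 217 ± 76.1 in BPA livers and 269 ± 26.5 in control livers, and RUNX1 116 ± 30.2 in BPA livers and 248 ± 288 in control livers. The RUNX1 log2 difference of -0.55 turned to 0.13 without control sheep 902. In muscle MAF averaged 1354 ± 429 in BPA animals and 1099 ± 40.4 in controls, and IKZF1 108 ± 24.5 in BPA animals and 94.4 ± 21.0 in controls. ITAM adaptors and kinases, which relay Fc receptor signals, were lower in 10 of 11 in BPA livers (median -0.40) and higher in 9 of 11 in BPA muscles (median 0.20). Of the lower genes in liver, PLCG2 (-0.0024) and VAV1 (-0.023) were near 0. Without control sheep 902 these turned to 0.21 and 0.18, and BTK turned from -0.19 to 0.24. The other lower genes of the list stayed lower. TYROBP, the adaptor DAP12, averaged 30.2 ± 31.9 in BPA livers and 157 ± 121 in control livers, a log2 difference of -2.52 (SE 0.680, limma adjusted p = 0.256). In muscle the phosphatase gene INPP5D averaged 215 ± 43.1 in BPA animals and 170.1 ± 29.4 in controls, and the kinase gene LYN 112 ± 9.62 in BPA animals and 99.5 ± 12.7 in controls.

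Pan-macrophage and lysosomal genes were lower in 13 of 14 in BPA livers (median -1.09) and higher in 11 of 12 in BPA muscles (median 0.29). MPEG1, the pore-forming perforin-2, averaged 252 ± 278 in BPA livers and 797 ± 42.6 in control livers (log2 -2.23, SE 0.601, limma adjusted p = 0.256). CTSS, the antigen-processing protease cathepsin S, averaged 218 ± 127 in BPA livers and 755 ± 435 in control livers. In muscle MPEG1 averaged 174 ± 26.6 in BPA animals and 136.0 ± 15.4 in controls, and CTSS 134 ± 36.2 in BPA animals and 97.5 ± 9.42 in controls. Classical complement genes and their receptors were lower in 7 of 8 in BPA livers (median -0.75) and divided evenly in muscle, with 4 of 8 higher (median -0.018). The receptors for the complement fragments C3a and C5a were among the lower ones: C3AR1 averaged 18.9 ± 8.33 in BPA livers and 79.2 ± 29.3 in control livers, and C5AR1 38.0 ± 25.3 in BPA livers and 253 ± 327 in control livers. The C5AR1 log2 difference was -2.16, and -1.40 without control sheep 902. In muscle C5AR1 averaged 61.8 ± 13.5 in BPA animals and 49.2 ± 19.4 in controls, and C1QBP, a mitochondrial protein that binds C1q, 769 ± 127 in BPA animals and 870.3 ± 44.6 in controls. Between tissues, C2 and C3, complement components secreted by hepatocytes, had the largest differences of the programme, 6.74 and 6.08 on the log2 scale, and IL34 and C1QBP (-1.88) the lowest; 46 of 62 programme genes passed as higher in liver and 5 as lower, where 36.1% of all genes passed as higher and 35.3% as lower.

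Markers of several other cell types were mostly lower in BPA livers too, though not all. Fibroblast and stellate markers were lower in BPA livers in 8 of 8, with summed levels of 2201 to 4963 in BPA livers and 5220.0 to 112110 in control livers, the top value being that of sheep 902. Cholangiocyte markers were lower in 5 of 5, summing to 160.4 to 285 in BPA livers and 410.1 to 1257 in control livers. Endothelial markers were lower in 5 of 6 (5001 to 7279 in BPA livers, 4764 to 9403 in control livers). The exception, STAB2, had the highest mean of them, 3799 ± 1028 in BPA livers and 2951 ± 1319 in control livers. It therefore weighs most in these sums. T and NK cell markers were lower in 6 of 7 (138 to 408 in BPA livers, 399 to 447 in control livers). Monocyte and neutrophil markers summed to 137 to 319 in BPA livers and 142 to 5853 in control livers, with 4 of 5 tested lower. B and plasma cell markers were lower in 2 of 2 tested (101 to 183 in BPA livers, 49.0 to 334 in control livers). Dendritic cell markers were lower in 3 of 7, the other 4 being higher, with sums of 502 to 688 in BPA livers and 523 to 598 in control livers. The few myofibre and erythroid markers tested in liver were higher in BPA livers in 2 of 3 and in 1 of 1. Hepatocyte markers were lower in 7 of 8, with sums of 234490 to 1051570 in BPA livers and 42888 to 1282700 in control livers. Ribosomal protein genes were lower in 71 of 73, summing to 20641 to 187145 in BPA livers and 79780 to 208484 in control livers. The part of cell composition, RNA quality and library composition in the liver differences was not tested. No marker that was found was at 0 in all 4 libraries of any group.

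In muscle, sheep 910 stood out among the BPA animals in other lists too. Its adipocyte markers summed to 3492 and its erythroid markers to 182.7, where control muscles had 904 to 1586 for adipocyte and 4.09 to 8.52 for erythroid markers. All BPA muscles had a higher erythroid sum than any control, from 11.2 upwards. The sum is carried by HBB, at 67.9 ± 75.9 in BPA muscles and 3.43 ± 2.14 in control muscles, while ALAS2 and SLC4A1 overlapped between the groups. Fibroblast and stellate markers summed to 12265 to 17028 in BPA muscles and 10705 to 14548 in control muscles, with 7 of 7 tested higher. The part of these markers in the muscle differences was not tested.

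The genes most like the 8 in their profile over libraries were ranked by the mean of 2 Pearson correlations with the average profile of the 8, over the 8 livers and over the 8 muscles, among 11832 genes. ZFP36L2, which encodes an mRNA-decay protein, came first with r = 0.98 in liver and 0.91 in muscle. It averaged 753 ± 369 in BPA livers and 1372 ± 122 in control livers, and 2274 ± 173 in BPA muscles and 2245 ± 127 in control muscles. CD14 and TGFB1, the gene of a secreted growth factor, followed with a mean r of 0.91 each. TGFB1 averaged 232 ± 118 in BPA livers and 462 ± 37.7 in control livers. The next were TAGLN2, SLC29A3, SELP, GPSM3, PTAFR, CXCL16 and F2R, with mean correlations of 0.88 to 0.89. Their liver differences ran from -2.01 for F2R to -0.78 for SELP, and their muscle differences from -0.044 for SELP to 0.63 for PTAFR, the receptor of platelet-activating factor. These likenesses rest on 8 libraries per tissue and are a description only.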

How the data were processed

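The authors deposited 1 table of normalized counts, a signal in which each gene's read count is divided by a size factor per library. Trimmomatic, FastQC and DESeq2 1.24.0 were used, per the submitters' processing notes, and ribosomal RNA was depleted before library preparation with a low-input kit, per the labels' protocols. The aligner, counter, strandedness, annotation and genome build were not given in the sources used here. Values were whole multiples of 1 step per library; within 0.1 read, at least 99.995% came out whole, so reads and depth were recovered. The low depth of 3 livers limits precision.

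Members, lists and tests were chosen with earlier results of these data known. limma 3.58.1 (R 4.3.3; lmFit, eBayes with trend) was run on log2(count + 1) for genes averaging at least 10, with Benjamini-Hochberg adjustment over all genes tested and a threshold of 0.05. This scale understates changes of low genes. edgeR 4.0.16 and DESeq2 1.42.0 on the recovered reads, other pseudocounts (0.5 and 5), no filter, TMM scaling and leaving out libraries were alternatives. The script was tested on simulated data. Genes named from the 7 lists were those past the threshold, else the 2 with the smallest p per list and tissue; between tissues, the 2 highest and 2 lowest differences; and the 10 genes with the most similar profile. A gene that this rule selects is not reported here. The C1QA/C1QC ratio replaced ratios that needed symbols not analysed here, and it and the ribosomal list were chosen after seeing the data. The ratios to PTPRC were not among the planned comparisons. Gene order came from RefSeq (ARS-UI_Ramb_v3.0), without coordinates. The same sheep number marks the same animal in both tissues, per the labels; across genes, deviations of an animal's liver and muscle from their group means correlated by -0.10 to 0.12. Library pairs within a group differed by more than sampling noise.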

Additional observations from a re-analysis of the deposited data

Results flagged for a closer look

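Within groups of 4, a library was set apart where its gap to the nearest other, divided by the group's range, exceeded Dixon's 95% critical value. Of the 32 groups (8 genes in 4 groups), 3 held such a library; chance alone sets apart about 1 group in 20. LAPTM5 in the BPA liver of sheep 910 was 749.7, where the other BPA livers had 91.6 to 160.4 (gap over range 0.895). C1QC in the same library was 2095, where the others had 242 to 444 (0.891). SPI1 in the control muscle of sheep 924 was 59.8, where the other controls had 36.0 to 39.0 (0.875).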

How the results depend on the processing

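Directions of the 8 genes in liver held under every alternative run: pseudocounts, TMM scaling and leaving out each library or both sheep 902 and 910. Their median difference of -1.69 ranged from -2.22 to -1.36 with 1 library left out and was -2.61 without both sheep. In muscle the median ranged from 0.10 to 0.34; FCER1G, which ranged from -0.063 to 0.19, turned to -0.056, -0.015 and -0.063 without BPA sheep 910, control sheep 902 and control sheep 928, and C1QC, which ranged from -0.10 to 0.28, to -0.10 and -0.096 without BPA sheep 910 and control sheep 928. MARCO missed the filter in 1 of the muscle settings. Calls in liver depended on the fit: against 0 of all genes and 0 of the programme, DESeq2 called 195 and 1, the 4-group fit 2299 and 16, and limma without both sheep 6594 and 32. Leaving out 1 library gave 0 to 2595 and 0 to 11, the highest without BPA sheep 910. In muscle, against 19, DESeq2 called 131 and the 4-group fit 0, and leaving out 1 library gave 11 (BPA sheep 984) to 31 (BPA sheep 910). For the difference between the BPA effects in liver and in muscle, DESeq2 called 148 and 2, against 0 and 0. Leaving out 1 animal gave 0 to 3020 and 0 to 15. The highest came without sheep 910; without sheep 902 there were 4 and 1, and without sheep 908 there was 1. The cause of these shifts was not tested. With the animal as a replicate block, 0 genes passed for that difference and 11091, against 11420, between tissues, and the paired fit changed no call of the 8 genes. Between tissues, 6 of the 8 passed with any animal left out. In control animals alone the differences of FCER1G (1.57) and LAPTM5 (1.74) were larger, but the control livers also entered the choice of genes. The C1QA/C1QC difference of 0.32 ranged from 0.26 to 0.44 and passed without sheep 902 (0.44); the MARCO/CD68 difference ranged from 2.39 to 2.85. Depth limits MARCO most, with as few as 3 reads in muscle and 6 in liver.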
